A study of Mus musculus with 18 samples.

Results

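The 10 genes described here build or seal the cornified envelope of squamous epithelium, and they were measured in 18 RNA-seq libraries of mouse pancreatic tumour cells that differ in the mitochondrial calcium uniporter gene Mcu. They were chosen by symbol from the 35642 gene symbols of the expression table: the small proline-rich genes Sprr1a, Sprr1b, Sprr2a1, Sprr2a2, Sprr2a3 and Sprr3, involucrin (Ivl), envoplakin (Evpl), periplakin (Ppl) and transglutaminase 1 (Tgm1). The 3 near-identical Sprr2a genes were also read as their summed level. The choice was made with the differences between Mcu groups in these libraries known, so the members' values in those contrasts are descriptions without a test. Only the differences between clones of the same Mcu label were tested for the members.

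The cells are KPCY lines, which carry KrasLSL-G12D/+, Trp53 LSL-R172H/+, Pdx1-Cre and R26LSL-Yfp. Pdx1-Cre is active in the pancreatic epithelium, so the mutant alleles are switched on there, and every group shares these alleles. Line 1151 had lost Mcu through Cre and was given either an empty vector or MCU, with both groups kept in 2 µg/mL puromycin. Line 2838 was represented by wild-type clones 15 and 22, which carry an empty vector, and by CRISPR knockout clones 17 and 42, for which the labels name no vector. Each of the 6 groups had 3 libraries of untreated cells grown with 10% serum, and each 2838 group is a single clone. The labels place all libraries of line 1151 in batch 1 and all of line 2838 in batch 2, so line and batch cannot be told apart. Whether the 3 libraries of each group were grown as separate cultures is not stated there, and p-values then measure only the spread between these libraries.

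The cornified envelope is the cross-linked protein shell that replaces the plasma membrane of a terminally differentiating keratinocyte. Envoplakin and periplakin line the inner membrane first, involucrin joins them, small proline-rich proteins and loricrin thicken the shell, and transglutaminases weld the proteins together. Simple glandular epithelium such as the pancreatic duct does not build this shell, although some of these genes are known to be induced in stressed or injured simple epithelia.

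Mcu itself did not follow the labels in every group. Expression is given in TPM, a measure of transcript share that is scaled for transcript length. Mcu stood at 16.6, 15.1 and 13.3 TPM with empty vector and at 14.4, 15.2 and 13.1 TPM in the libraries labelled MCU re-expressing, so the 1151 groups overlapped. In line 2838 it stood at 68.4, 81.2 and 76.0 TPM in clone 15 and at 94.4, 96.3 and 59.3 TPM in clone 22. The libraries labelled knockout clone 42 lay well below these, at 12.3, 10.5 and 11.5 TPM, whereas those labelled knockout clone 17 lay above every wild-type library, at 120, 122 and 113 TPM. These are RNA levels under the gene symbol Mcu, so they do not tell whether MCU protein was lost or restored. The group names below are those of the labels.

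All 8 listed simple epithelial markers reached 1 TPM in at least 1 library. Their summed level was 4459 to 6950 TPM, mostly keratins 8 and 18. Not all were expressed throughout: Epcam and Cldn4 averaged above 1 TPM only with empty vector in 1151, at 1.33 and 6.15 TPM. Epcam stayed at or below 1.67 TPM in every library. Of 6 markers of basal and suprabasal keratinocytes, Krt14 and Krt10 reached 1 TPM, Krt1 was listed at 0 in every library, and Krt5 and Trp63 did not exceed 0.0435 and 0.114 TPM. None of 7 fibroblast markers reached 1 TPM. The other lists were reached by 2 of 6 leukocyte, 2 of 4 endothelial and 1 of 7 acinar markers. One library stood apart: clone 22 replicate 3 had 10760 genes at 1 TPM or more against 11207 to 11507 in the others. In that library the 2645 genes with transcripts of at least 5000 nt had a median log2 deviation of -1.22 from the other libraries of the clone, against -0.127 to 0.631 elsewhere.

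Sprr1a, a cross-linked precursor of the envelope, was the most abundant member in every library except 1151 empty vector replicate 3, where Ppl stood higher. It lies at chr3:92483952-92485895 on the minus strand (GRCm38/mm10, GENCODE M21) and has a 2-exon transcript of 806 nt with 432 coding nt. The gene's upstream stretch is shown first, with those of involucrin and of its silent relative Sprr1b, because these 3 genes carry a match to the AP-1 motif. AP-1 factors are Fos and Jun dimers known to drive envelope genes in keratinocytes. The sequences are from RefSeq (GRCm38.p6), minus strand, read 5′ to 3′, and run from 250 to 21 bases before the annotated start. Capitals mark TGANTCA.
Sprr1a, chr3:92485902-92486131: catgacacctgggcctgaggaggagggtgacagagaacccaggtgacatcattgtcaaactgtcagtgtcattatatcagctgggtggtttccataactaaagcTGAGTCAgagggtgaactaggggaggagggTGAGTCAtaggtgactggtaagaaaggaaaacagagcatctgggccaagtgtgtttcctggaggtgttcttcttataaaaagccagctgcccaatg
Ivl, chr3:92573756-92573985: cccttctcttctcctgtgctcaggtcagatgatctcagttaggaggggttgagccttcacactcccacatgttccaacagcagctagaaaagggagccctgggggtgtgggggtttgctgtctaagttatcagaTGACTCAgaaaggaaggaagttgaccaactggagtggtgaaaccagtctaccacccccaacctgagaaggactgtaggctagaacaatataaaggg
Sprr1b, chr3:92438800-92439029: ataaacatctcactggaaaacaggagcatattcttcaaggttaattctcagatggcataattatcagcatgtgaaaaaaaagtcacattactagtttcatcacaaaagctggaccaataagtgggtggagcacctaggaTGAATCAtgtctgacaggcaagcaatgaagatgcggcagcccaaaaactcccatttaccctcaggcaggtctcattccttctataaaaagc
The Sprr1a stretch holds TGAGTCA starting 146 and 116 bases before the start, involucrin holds TGACTCA at 116 and Sprr1b holds TGAATCA at 111. Both strands were searched over the 250 bases before the start. The motif was present in 6.75% of 32851 RefSeq windows of that length and at least 2 matches in 0.338%. TATAAA was found in all 3 genes, also in the silent Sprr3, and in 12.4% of windows. The KLF motif GGGNGTGG and the ETS motif AGGAAG were also searched, and Sprr1a and Sprr1b held neither. Involucrin held both, and Sprr3 and the 3 Sprr2a genes held the ETS motif. Over all windows the KLF motif was present in 15.9% and the ETS motif in 29.5%. RefSeq windows were at hand for 8 of the 10 members, and those of Sprr2a1, Sprr2a2, Sprr2a3, Sprr3 and Tgm1 held no TGANTCA. A match is a description of the letters only.

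Sprr1a was lowest in 1151 cells with empty vector and highest in 2838 clone 17. Its level was 217, 224 and 218 TPM in 1151 cells labelled MCU re-expressing and 48.6, 45.4 and 36.8 TPM with empty vector, so all 3 empty vector libraries lay below all 3 others. The means were 219 ± 3.59 and 43.6 ± 6.10 TPM (SD, n = 3), a 5.04-fold higher level with MCU and a log2(TPM + 1) difference of -2.32 (SE 0.10) for empty vector minus MCU. In line 2838 the wild-type libraries stood at 245, 142 and 190 TPM in clone 15 and at 158, 146 and 156 TPM in clone 22. The knockout libraries stood at 431, 413 and 447 TPM in clone 17 and at 361, 324 and 313 TPM in clone 42. Every knockout library therefore lay above every wild-type library, with a mean 2.21 times that of the wild type and a difference of 1.15 (SE 0.22) between clone means. The difference ran from 0.82 for clone 42 against clone 15 to 1.48 for clone 17 against clone 22.

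Between clones of the same label Sprr1a did not pass the test. It stood at 192 ± 51.9 TPM in clone 15 and 153 ± 6.16 TPM in clone 22 (log2 difference -0.29, SE 0.16, limma adjusted p = 0.418). In clone 42 it was below clone 17 in all libraries, by -0.37 (SE 0.16), which did not pass after adjustment over all genes (limma adjusted p = 0.146) and passed in a fit of the 2 clones alone (0.00148) and without clone 15 replicate 1 (0.0438) or replicate 2 (0.0473). In the order of group means the 2 knockout clones and the 1151 empty vector group each stood apart, while the MCU group of 1151 overlapped clone 15 and clone 15 overlapped clone 22. Among genes ordered by TPM, Sprr1a ranked between 316 and 337 from the top in clone 17 and between 3077 and 3816 in the 1151 empty vector libraries.

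**Figure D1:**
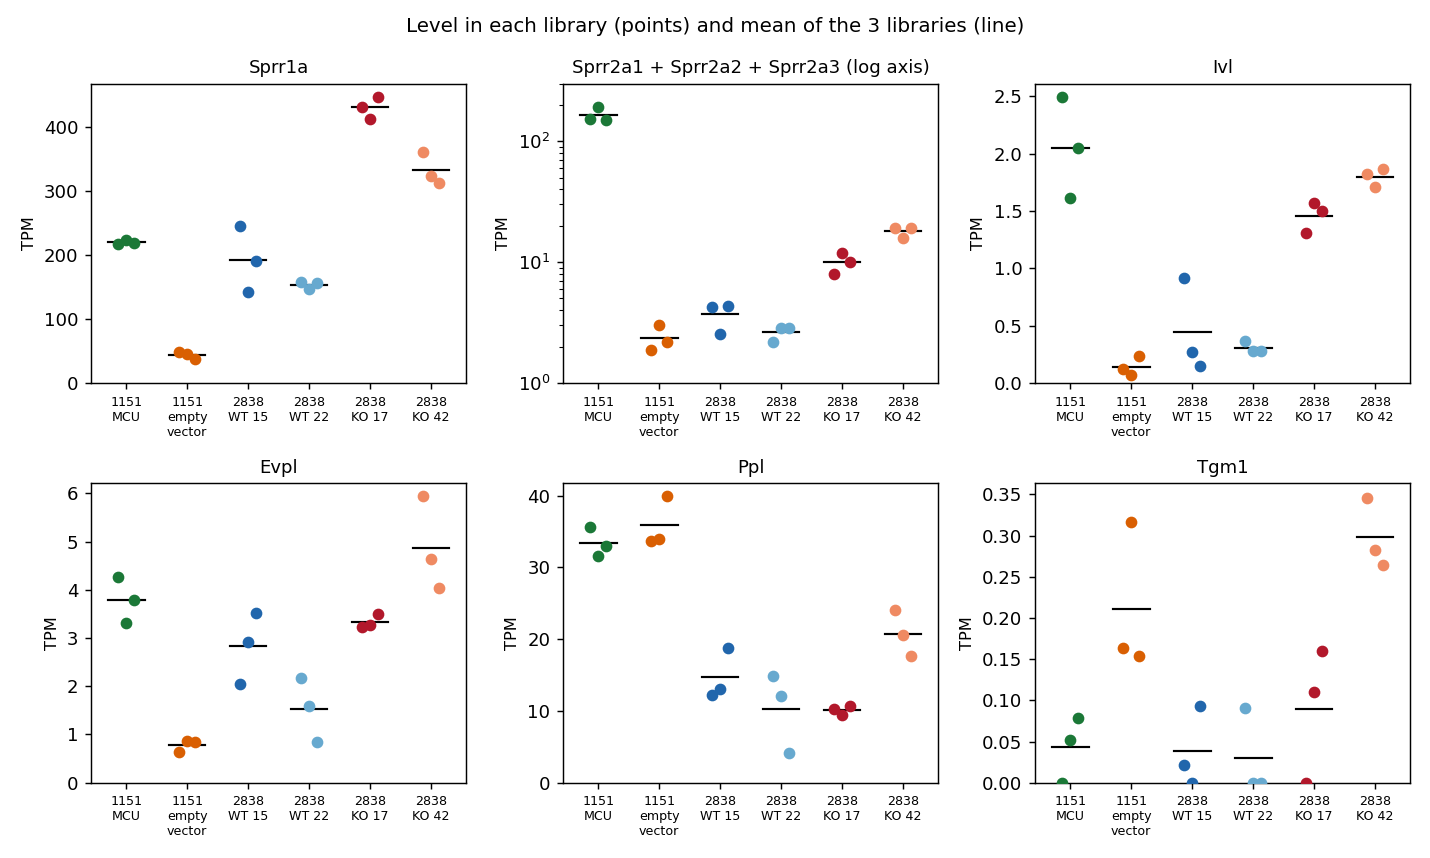
Level of Sprr1a, the summed Sprr2a genes, Ivl, Evpl, Ppl and Tgm1 in TPM (vertical axes; log axis for Sprr2a) in each of 18 libraries, by group. Points are libraries and lines are means of 3; Sprr1a is lowest with empty vector in 1151, at 43.6 TPM, and Ppl dips to 4.07 TPM in clone 22 replicate 3.

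The 3 Sprr2a genes encode small proline-rich proteins that are also known to be induced in gut and bile duct epithelium. Their coding sequences, each of 249 nt, are shown because they decide what can be told apart. The GENCODE M21 coding sequence of Sprr2a1 is identical to that of Sprr2a2, and Sprr2a3 differs from both at 3 positions, in capitals (98.8% identity).
Sprr2a2: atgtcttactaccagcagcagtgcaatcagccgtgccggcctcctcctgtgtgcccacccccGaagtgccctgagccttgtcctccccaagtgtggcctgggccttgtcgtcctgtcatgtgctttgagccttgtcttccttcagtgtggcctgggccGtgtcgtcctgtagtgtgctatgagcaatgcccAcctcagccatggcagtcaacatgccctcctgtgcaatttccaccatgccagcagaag
Sprr2a3: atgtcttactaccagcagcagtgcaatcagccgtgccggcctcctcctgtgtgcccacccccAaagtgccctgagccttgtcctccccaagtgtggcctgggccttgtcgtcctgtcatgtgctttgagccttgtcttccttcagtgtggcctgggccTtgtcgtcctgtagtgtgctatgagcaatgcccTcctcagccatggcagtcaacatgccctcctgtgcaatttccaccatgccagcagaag
Of the 31-base words in their transcripts, 95.4% for Sprr2a1, 97.8% for Sprr2a2 and 73.4% for Sprr2a3 occur in another member, against 0 for the other 7 members. The RefSeq start windows of Sprr2a1 and Sprr2a2 are also identical over 300 bases, and Sprr2a3 shares a run of 272. The Sprr2a genes follow one another on the plus strand at chr3:92215799-92221911 (Sprr2a1), chr3:92215920-92256724 (Sprr2a2, with 1 transcript starting inside Sprr2a1) and chr3:92285417-92291405 (Sprr2a3). The split of reads among them is therefore uncertain, and the sum is the firmer value.

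The summed Sprr2a level set the 1151 MCU group apart from all others. It was 153, 194 and 149 TPM there and 1.89, 3.03 and 2.18 TPM with empty vector, with no overlap. The means were 165 ± 25.1 and 2.36 ± 0.595 TPM (SD, n = 3), a 69.9-fold higher level with MCU and a difference of -5.63 (SE 0.15) for empty vector minus MCU. With a pseudocount of 0.1 in place of 1 the difference was -6.09. In line 2838 it was 4.23, 2.55 and 4.32 TPM in clone 15, 2.18, 2.86 and 2.86 TPM in clone 22, 7.95, 11.9 and 10.1 TPM in clone 17, and 19.1, 15.9 and 19.1 TPM in clone 42. All knockout libraries lay above all wild-type libraries, with a mean 4.42 times higher and a difference of 1.81 (SE 0.35) between clone means.

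The sum also differed between the 2 knockout clones. It was higher in clone 42 than in clone 17 in all libraries, by 0.80 (SE 0.21, limma adjusted p = 0.0208). That call was lost when clone 17 replicate 1 or 3, or clone 42 replicate 1 or 3, was left out (adjusted p = 0.0994, 0.0613, 0.0793 and 0.0791). The wild-type clones overlapped, with a difference of -0.35 for clone 22 minus clone 15 (SE 0.21, limma adjusted p = 0.436). Set against Sprr1a, the sum equalled 75.3 ± 10.1% of it in the 1151 MCU group, 5.49 ± 1.44% with empty vector, 1.93% and 1.73% in clones 15 and 22, 2.33 ± 0.517% in clone 17 and 5.44 ± 0.617% in clone 42 (SD, n = 3).

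By the authors' assignment, Sprr2a2 carried most of the sum, at 68.6% to 97.8% in each library. Its level was 143, 177 and 136 TPM with MCU against 1.75, 2.93 and 1.90 TPM with empty vector in line 1151, with no overlap (difference -5.59). In line 2838 it was 4.14, 1.75 and 3.07 TPM in clone 15, 1.80, 2.02 and 2.10 TPM in clone 22, 7.27, 11.1 and 8.09 TPM in clone 17, and 16.4, 14.8 and 15.2 TPM in clone 42. Knockout lay above wild type in all libraries (difference 1.90), and clone 42 exceeded clone 17 by 0.76 (SE 0.23, limma adjusted p = 0.0404). That call was lost without any 1 of the 3 clone 42 libraries, without clone 17 replicate 1 or 3, without clone 15 replicate 3 or clone 22 replicate 2, and in several other settings, with adjusted p over all settings between 0.00315 and 0.155.

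Sprr2a3 took 0% to 28.0% of the sum and Sprr2a1 0.689% to 10.9%. Sprr2a3 was listed at 8.88, 15.9 and 11.6 TPM with MCU, whereas with empty vector it was listed at 0 in 2 libraries and at 0.184 TPM in the third. In 2838 its libraries overlapped between knockout and wild type, from 0 to 3.64 TPM, and the difference between clones 42 and 17 was 0.74 (SE 0.37, limma adjusted p = 0.206). Sprr2a1 was listed at 1.06, 1.63 and 1.16 TPM with MCU and at no more than 0.278 TPM in any other library.

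Involucrin, the early scaffold of the envelope, was low throughout and moved in the same directions. Its gene (chr3:92570902-92573735) gave 2.49, 1.61 and 2.05 TPM with MCU and 0.125, 0.0709 and 0.231 TPM with empty vector, with no overlap and a difference of -1.41 (SE 0.15). In line 2838 it gave 0.912, 0.274 and 0.148 TPM in clone 15, 0.364, 0.277 and 0.281 TPM in clone 22, 1.31, 1.57 and 1.5 TPM in clone 17 and 1.82, 1.71 and 1.87 TPM in clone 42. Every knockout library exceeded every wild-type library (difference 0.95, SE 0.37). Clone 42 lay above clone 17 in all libraries, but the difference of 0.19 (SE 0.20) did not pass (limma adjusted p = 0.595), nor did that of -0.11 between the wild-type clones (SE 0.20, limma adjusted p = 0.768). At these levels the pseudocount of 1 compresses the differences: with 0.1 they were -3.18 in 1151 and 2.00 for knockout minus wild type in 2838.

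**Figure D2:**
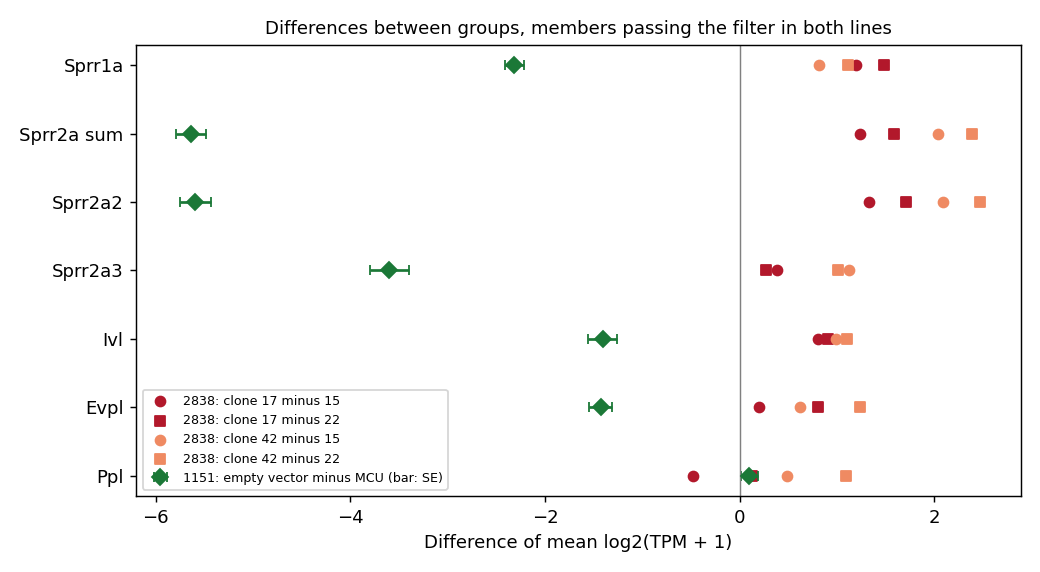
Difference of mean log2(TPM + 1) (horizontal axis) for 6 members and the Sprr2a sum: empty vector minus MCU in 1151 (diamonds, bar SE) and each knockout clone minus each wild-type clone in 2838 (circles and squares). Sprr1a, Sprr2a, Ivl and Evpl lie below 0 in 1151 and above 0 in all 4 clone pairs, although Evpl and Sprr2a3 overlapped between knockout and wild-type libraries. Ppl lies near 0 in 1151 and on both sides of 0 in 2838.

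The plakin pair that binds the envelope to the cell cortex did not move as a unit. Envoplakin (chr11:116220559-116238077, transcript of 6384 nt) stood at 4.27, 3.31 and 3.79 TPM with MCU and at 0.644, 0.856 and 0.834 TPM with empty vector, with no overlap and a difference of -1.43 (SE 0.12). Periplakin (chr16:5086291-5132421, transcript of 6217 nt) stood at 35.6, 31.6 and 33.0 TPM with MCU and at 33.7, 34.0 and 39.9 TPM with empty vector. Those groups overlapped, and the periplakin difference was 0.10 (SE 0.09).

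In line 2838 envoplakin was at 2.05, 2.92 and 3.52 TPM in clone 15, 2.17, 1.59 and 0.843 TPM in clone 22, 3.23, 3.27 and 3.49 TPM in clone 17 and 5.94, 4.64 and 4.04 TPM in clone 42. Knockout and wild type overlapped (difference 0.72, SE 0.36), because clone 15 reached the range of clone 17. Neither clone contrast passed for envoplakin, at -0.61 for clone 22 minus clone 15 (SE 0.23, limma adjusted p = 0.239) and 0.43 for clone 42 minus clone 17 (SE 0.23, limma adjusted p = 0.249). The latter passed in a fit of the 2 clones alone (limma adjusted p = 0.0433).

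Periplakin differed mainly between the knockout clones. It was at 12.2, 13.1 and 18.7 TPM in clone 15, 14.8, 12.1 and 4.07 TPM in clone 22, 10.3, 9.40 and 10.7 TPM in clone 17 and 24.0, 20.6 and 17.7 TPM in clone 42. Clone 42 lay above clone 17 in all libraries, by 0.96 (SE 0.35), which did not pass in the fit of all 12 libraries (limma adjusted p = 0.0864) and did pass without clone 22 replicate 3 (0.000853), in a fit of the 2 clones alone (0.000382), with median-of-ratios scaling (0.0156) and with quantile normalization (0.00448). The difference of knockout minus wild type was 0.31 (SE 0.36) with overlap, and it turned to -0.17 without clone 42.

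Clone 22 replicate 3 gave the lowest value of both plakins in line 2838. Periplakin there was 4.07 TPM against a mean of 13.5 TPM in the other 2 libraries of the clone, and envoplakin 0.843 against 1.88 TPM. Sprr1a, with its short transcript, was at 156 against 152 TPM. Without that library the difference of clone 22 minus clone 15 was -0.10 for periplakin (limma adjusted p = 0.787), against -0.60 (SE 0.35, limma adjusted p = 0.434) with it, and -0.40 for envoplakin (adjusted p = 0.266). The part of the loss of long transcripts in that library was not tested further.

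**Figure D3:**
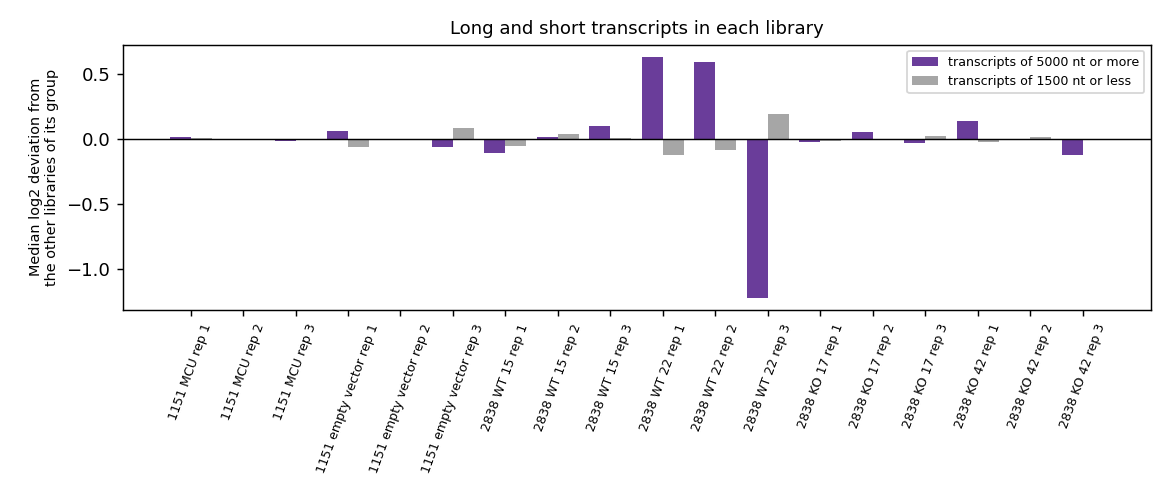
Median log2 deviation of each library from the other libraries of its group (vertical axis) for genes with transcripts of at least 5000 nt (purple) and at most 1500 nt (grey). Clone 22 replicate 3 stands at -1.22 for long and 0.192 for short transcripts, and the other libraries of that clone deviate upward because they are compared with it.

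The remaining members were barely detected. Tgm1, the membrane-bound enzyme that cross-links the envelope (chr14:55700009-55713926), reached at most 0.346 TPM, in clone 42, and was listed at 0 in 5 libraries. Its 3 empty vector libraries, at 0.163, 0.317 and 0.154 TPM, lay above the MCU libraries, at 0, 0.0522 and 0.0785 TPM, which is opposite to the Sprr genes but below the level that was tested. Sprr1b was listed at 0 in 9 libraries and reached at most 0.702 TPM, and Sprr3 was listed at 0 in all 18. The depth of the libraries is unknown, so no limit can be set on these low values.

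In line 1151, 7 of the 10 members reached at least 1 TPM in at least 3 libraries and entered the fit, and 6 of these were lower with empty vector in every library. The members were chosen with this contrast known. Of 11630 genes, 29.8% were lower and 37.4% were higher with empty vector without overlap, and the median difference of the 7 members was -1.43 against 0.05 for all genes. In line 2838, 6 members entered the fit, 3 were higher in every knockout library and none was lower, against 3.53% and 1.52% of 11795 genes. Their median was 0.83 against 0.07 for all genes. Sprr2a1, Sprr2a3, Ivl and Evpl passed the filter in line 1151 only through the MCU group and so had to differ. They make up most of the 6, and the median of -1.43 is the value of Evpl. In line 2838 Ivl passed only through the knockout libraries, which favoured its direction. These counts and medians are therefore descriptions, and the shares over all genes are no test of them.

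For clone 22 against clone 15, limma called 0 of the 6 members, with 1 (Evpl) at an unadjusted p under 0.05, while 0.577% of genes were called higher and 1.34% lower in clone 22. For clone 42 against clone 17, limma called 1 of 6, Sprr2a2, as higher, with 8.24% of genes called higher and 8.99% lower. Median differences were -0.33 and 0.58, against -0.16 and -0.01 for all genes.

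Most other genes of the epidermal differentiation cluster, where the Sprr genes lie, stayed near 0. Between loricrin and involucrin on chromosome 3 lie 22 coding genes, of which 6 reached 1 TPM in a library, 3 reached 5 TPM (Sprr1a, Sprr2a2 and Sprr2a3) and 9 were listed at 0 in all 18 libraries. Loricrin, the main protein of the mature epidermal envelope, reached at most 0.453 TPM. Sprr1a thus stood between silent neighbours, Sprr3 on one side and Sprr4 on the other, both listed at 0. The genes of chromosome 3 had a median difference of -0.02 in the 1151 contrast, -0.02 in the knockout contrast of 2838, -0.19 for clone 22 minus clone 15 and -0.22 for clone 42 minus clone 17, against 0.05, 0.07, -0.16 and -0.01 for all genes.

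**Figure D4:**
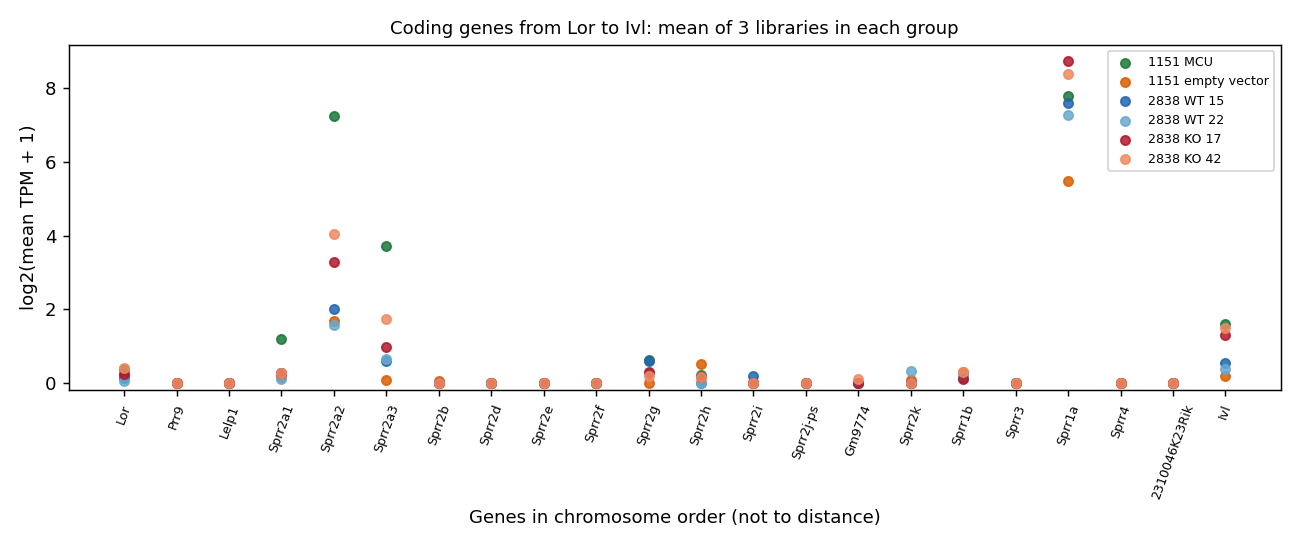
Mean level of each coding gene from Lor to Ivl, as log2(mean TPM + 1) on the vertical axis, in chromosome order and not to distance; colours are the 6 groups. Sprr1a and Sprr2a2 stand above a row of genes near 0, with Sprr2a2 highest in 1151 with MCU and Sprr1a highest in 2838 clone 17.

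The wider squamous programme was followed in 7 lists with 169 other genes. Among 48 cornified envelope precursors, 42 stayed below 1 TPM in all libraries and 25 were listed at 0. Of all listed genes, 59 could be tested in line 1151, and limma called 25 higher and 17 lower with empty vector, against 34.0% and 27.0% of all genes. Their median difference was 0.13, against 0.05 for all genes. When the 6 group means were fitted with the spread between same-label clones of line 2838 in place of that between libraries, the number of calls fell from 42 to 7, so the adjusted p-values of line 1151 below rest on the spread between libraries. The lists were fixed with earlier results of these data known.

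In line 1151, 4 precursors could be tested, of which 3 were called higher with empty vector and 0 lower. The shares over all genes, for this and the next lists, were 34.0% higher and 27.0% lower. Cnfn, listed at 0 in all MCU libraries, and Sbsn, below 1 TPM there, entered the fit only through the empty vector group and so had to be higher, and Cdsn overlapped (difference 0.11, limma adjusted p = 0.486). Elovl4, Pkp1, Fosb, Serpinb5, Serpinb2 and Klk8, all counted below, likewise passed the filter only through the empty vector group. Lgals7 and Grhl3 passed only through the MCU group. The filter fixed the directions of these genes, which are also part of the counts over all lists above. Sciellin (Scel), a precursor of the envelope, was at 21.2 ± 1.27 TPM against 8.33 ± 0.179 TPM with MCU (difference 1.25, SE 0.07, limma adjusted p = 1.38e-05). Of 7 cross-linking and lipid genes, 2 rose and 3 fell: Elovl4, which elongates very long fatty acids, was at 5.86 against 0.174 TPM (2.55), and Ugcg (0.31) also rose, while the widely expressed transglutaminase Tgm2 (-0.36), Smpd1 (-0.30) and Elovl1 (-0.29) fell. Of 10 plakin and desmosomal genes, 5 rose and 3 fell, led by plakophilin 1 (Pkp1), a desmosomal plaque protein of stratified epithelium, at 11.3 against 0.0769 TPM (3.51, SE 0.09). The large linkers Dst (1.11) and Plec (0.68) also rose, and Pkp2 (-0.53), Perp (-0.36) and Jup (-0.21) fell.

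Keratin 80 rose with empty vector, at 46.8 ± 1.67 TPM against 7.35 ± 0.119 TPM (2.52, limma adjusted p = 4.17e-07), as 1 of 2 squamous keratins tested. The 12 transcription factors split into 4 higher and 6 lower, against 34.0% and 27.0% of all genes. Grhl3, at 0.203 against 1.49 TPM with MCU, is among the 6 lower and passed the filter only through the MCU group. Klf4, a regulator of barrier formation, was at 20.5, 23.1 and 23.3 TPM with empty vector and 74.1, 72.6 and 72.8 TPM with MCU (-1.67, SE 0.07, limma adjusted p = 3.02e-06), without overlap. Elf3, an epithelial ETS factor known to act on Sprr promoters, fell by 1.89, Tfap2a fell by 2.35, and Klf5 rose by 0.38.

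AP-1 subunits moved mostly the other way from Sprr1a in 1151. Of 9 tested, 6 rose and 1 fell with empty vector. Fosb, at 3.35 against 0.590 TPM with MCU, is among the 6 and passed the filter only through the empty vector group. Over all genes, 34.0% were called higher and 27.0% lower, for this list and the next. Fosl2 rose by 1.96 and Jun by 1.04. Fosl1, at 121, 147 and 130 TPM with empty vector against 51.8, 42.4 and 50.5 TPM with MCU, rose by 1.44 (SE 0.10, limma adjusted p = 3.38e-05). Jund, at 78.2 ± 6.67 against 176 ± 6.88 TPM, fell by 1.16. Of 15 surface, protease and inhibitor genes, 4 rose and 4 fell: the serpin Serpinb5 rose by 2.61, while Mal, a raft protein of apical sorting, at 3.35 ± 0.233 against 83.0 ± 2.84 TPM, fell by 4.27. Lgals7, a galectin of stratified epithelia, fell by 3.11 and S100a16 by 1.12.

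**Figure D5:**
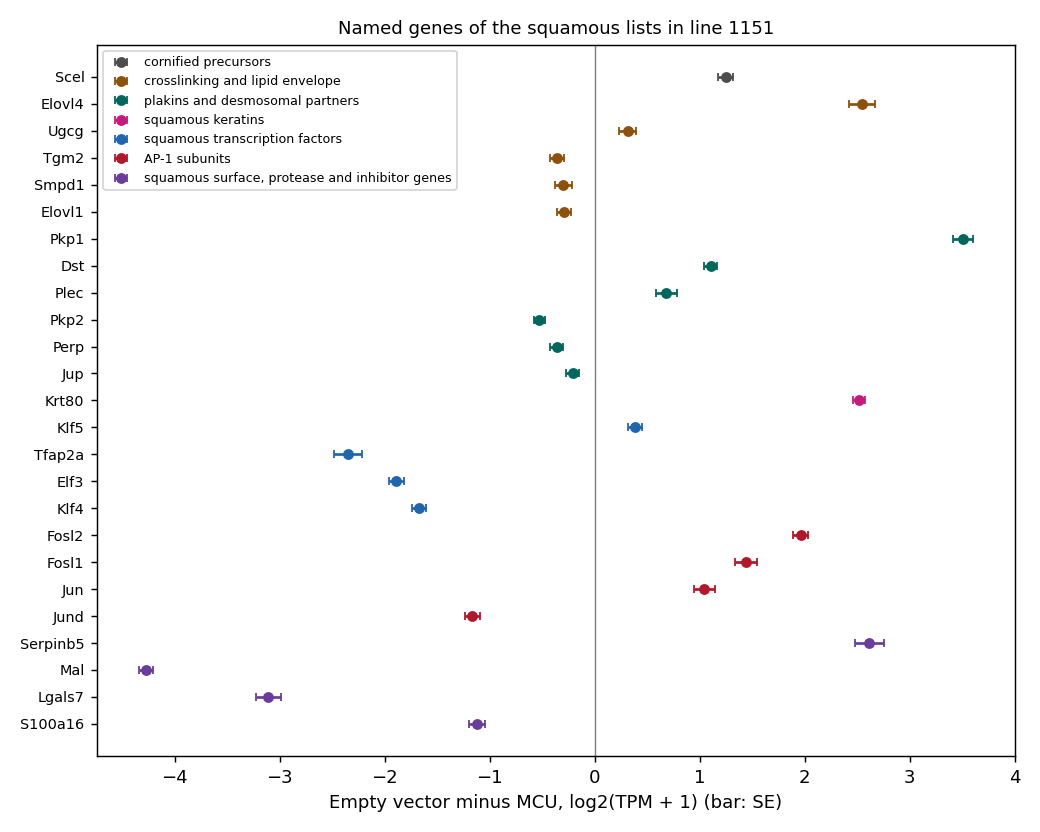
Empty vector minus MCU in line 1151, as difference of log2(TPM + 1) with SE bars (horizontal axis), for the named genes of the 7 squamous lists (colours). Pkp1, Serpinb5, Elovl4 and Krt80 lie above 2.5, whereas Mal and Lgals7 lie below -3.

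In line 2838 limma called 0 of 57 listed genes between knockout and wild type on clone means, with 11 at an unadjusted p under 0.05. Over all genes, 0.0254% were called higher and 0.0509% lower, 662 genes having an unadjusted p under 0.05. Without overlap between libraries, 8 of the 57 listed genes were higher in knockout and 0 lower, against 3.53% and 1.52% of all genes: Perp, Pkp1, Krt14, Elf3, Grhl1, Klf4, Fos and Mal, which are named after their values were seen. Pkp1 (0.548 and 0.580 TPM in clones 15 and 22) and Grhl1 (0.285 and 0.577 TPM) passed the filter only through knockout libraries. Their place on the higher side was therefore favoured by the filter. Klf4 was at 76.8, 103 and 103 TPM in clone 15, 135, 129 and 74.4 TPM in clone 22, 179, 176 and 166 TPM in clone 17 and 158, 156 and 153 TPM in clone 42 (difference 0.70, limma adjusted p = 0.557). Mal was at 30.8 ± 4.96 TPM in clone 15, 61.2 ± 11.4 TPM in clone 22, 113 ± 4.36 TPM in clone 17 and 106 ± 1.48 TPM in clone 42 (1.33, limma adjusted p = 0.245).

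Keratin 14, the basal keratinocyte keratin, differed in each clone contrast. It was at 1.13, 1.23 and 2.57 TPM in clone 15, 7.46, 5.23 and 6.38 TPM in clone 22, 11.1, 13.4 and 12.3 TPM in clone 17 and 29.8, 30.9 and 33.8 TPM in clone 42, with no overlap between any 2 clones. It rose in clone 22 over clone 15 by 1.51 (limma adjusted p = 0.005) and in clone 42 over clone 17 by 1.29 (limma adjusted p = 0.00175), both between clones of the same Mcu label. In a fit of clones 15 and 22 alone, 0 of the listed genes were called, Krt14 included. The Krt14 level moved beside those of the Sprr2a sum and periplakin between clones 17 and 42. It did not do so for clone 22 minus clone 15, where the sum (-0.35) and periplakin (-0.60) had negative differences that did not pass. The summed level of the 6 keratinocyte markers was 11.8 to 17.0 TPM in clone 17 and 33.0 to 36.6 TPM in clone 42. The summed level of the 7 acinar markers, carried by Cela1, was 16.5 to 29.3 TPM in the wild-type and 9.21 to 14.2 TPM in the knockout libraries, and that of the 4 endothelial markers was 8.32 to 8.77 TPM with empty vector and 5.60 to 6.10 TPM with MCU in line 1151. Of the latter, Kdr averaged 8.51 and 0.767 TPM and Cdh5 0.00568 and 4.92 TPM. The part of these markers in the members' differences was not tested, and in bulk RNA a change in the number of cells of a type and in RNA per cell cannot be told apart.

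Between the wild-type clones, limma called 5 of 57 listed genes, 3 higher and 2 lower in clone 22, against 0.577% and 1.34% of all genes. Prss8, 1 of the 2 lower, averaged 1.32 and 0.112 TPM in clones 15 and 22 and 1.56 and 0.0806 TPM in clones 17 and 42. It passed the filter only through clones 15 and 17, which favoured its direction. Besides Krt14, Mal (0.97) and Anxa8 (0.60) rose, and the fatty acid binding protein gene Fabp5 fell by 1.24. Without clone 22 replicate 3 the count was 13. Between the knockout clones limma called 12 of 57, 4 higher and 8 lower in clone 42, against 8.24% and 8.99% of all genes. The 8 include Prss8 and Kazn, the latter at 0.812 TPM in clone 17 and 0.0356 TPM in clone 42. Neither passed the filter through clone 42, which favoured their direction. Emp1 (0.77), Anxa8 (0.64) and Fabp5 (0.61) rose beside Krt14, while the AP-1 genes Atf3 (-1.48) and Fosl1 (-1.11), Cebpb (-0.65), Abhd5 (-0.73) and S100a14 (-0.99) fell. That count was 6 or 7 when any 1 library of either knockout clone was left out and 23 without clone 22 replicate 3.

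The members' patterns over the 18 libraries were compared by Pearson correlation of log2(TPM + 1), which the separation of the 2 lines and batches enters and which is given as a description. Sprr1a and the Sprr2a sum had r = 0.45, Sprr1a and Evpl 0.82, Sprr1a and Ivl 0.75, the Sprr2a sum and Ivl 0.83, and Sprr1a and Ppl -0.46. Sprr1a lay close to Klf4 (0.91), whereas the Sprr2a sum did not (0.20). Among 10076 other genes averaging 5 TPM or more in some group, those most like Sprr1a were Krcc1 (0.97), Mettl7b (0.96) and Sptssb (0.96). Those most like Sprr2a2 were Chac2 (0.96), Prl2c3 (0.96) and Kif12 (0.94), and these also led for the Sprr2a sum. Those most like Sprr2a3 were Sprr2a2 itself (0.93), Dnase1l1 (0.93) and Kif12 (0.92), and those most like Ppl were Slc36a1 (0.97), Rpa1 (0.97) and Lin54 (0.96). Over the 12 libraries of line 2838 alone, r was 0.63, 0.61 and 0.63 for these genes with Sprr2a3. It was 0.71 for Sprr2a2 with Kif12 and 0.82 to 0.95 for the other pairs of Sprr1a, Sprr2a2 and Ppl.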

How the data were processed

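Poly(A) RNA of 18 libraries was sequenced as paired reads. The authors deposited TPM values per gene symbol, and the submitters' processing notes name Salmon, DESeq2 and mm10; versions and annotation are not given in the sources used here. TPM keeps no depth, so the precision of low values is unknown and no counting interval is given. The test was limma (version 3.58.1, run under R 4.3.3) on log2(TPM + 1), its variance prior following expression, over genes at 1 TPM or more in at least 3 libraries of the fit; p-values were adjusted by Benjamini-Hochberg over all genes tested and called under 0.05. Line 1151 was fitted alone. In line 2838 knockout and wild type were compared on 4 clone means, and clones of the same label in a fit of 12 libraries. The summed Sprr2a TPM was added as 1 row. The script was tested on simulated data. Members and lists were chosen with earlier results of these data known. Besides the 10 members and Mcu, the text names up to 3 called genes per direction of each list that do not overlap and reach a mean of 5 TPM in the higher group, and for each member reaching a group mean of 5 TPM the 3 genes most correlated with it. Listed genes without overlap between knockout and wild type, and the genes behind small counts, were named after their values were seen. One listed gene that met this rule is not reported here. Transcript lengths, positions and 31-base words come from GENCODE M21, which may differ from the authors' annotation. Alternatives were another pseudocount, other filters, other scalings, single libraries or clones omitted, libraries in place of clone means, and a replicate block.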

Additional observations from a re-analysis of the deposited data

Results flagged for a closer look

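Sprr1a, Sprr2a2, the Sprr2a sum and involucrin were flagged because every library moved one way in line 1151 and the opposite way in line 2838. For empty vector minus MCU in 1151 and for knockout minus wild type in 2838, the log2(TPM + 1) differences were -2.32 and 1.15 for Sprr1a, -5.59 and 1.90 for Sprr2a2, -5.63 and 1.81 for the Sprr2a sum, and -1.41 and 0.95 for Ivl. Ivl entered the fit only through the MCU group in 1151 and only through the knockout libraries in 2838, which favoured its directions. The difference between the lines was not tested. Line and batch cannot be told apart, and Mcu RNA did not separate the 1151 groups or lower clone 17, so the contrasts are those of the labels.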

How the results depend on the processing

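The direction of Sprr1a, the Sprr2a sum, Sprr2a2, Sprr2a3, Ivl and Evpl in both Mcu contrasts was kept in every setting that gave a value. The Sprr2a sum moved to -6.09 in 1151 with a pseudocount of 0.1, and Ppl in 2838 reversed to -0.17 without clone 42. In 1151 the listed genes called went from 42 to 7 with group means and the spread between same-label 2838 clones, and in 2838 knockout against wild type from 0 to 15 with libraries as the unit, 6 without clone 17 and 5 without clone 42. For clone 22 against clone 15 they went from 5 to 3 with a mean of at least 5 TPM, to 0 in a fit of the 2 clones alone, and from 4 to 13 on leaving out 1 library; for clone 42 against clone 17 they went from 12 to 25 in a fit of the 2 clones alone and from 6 to 23 on leaving out 1 library. Members called between clones 42 and 17 went from 1 to 0 with a pseudocount of 0.1, 2 with median-of-ratios scaling, 4 in a fit of the 2 clones alone and from 0 to 2 on leaving out 1 library. Same-numbered replicates did not deviate together (correlations of -0.15 to 0.14 over the 3 pairs of groups, none with all pairs over 0.1). The samples were therefore not treated as paired. Deviations from means of 3 libraries are tied to one another, so they cannot exclude a pairing by number. With a replicate block the listed genes called were 40, 4 and 11 and the members called between clones 42 and 17 were 0.

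Limits are few libraries per group, 2 clones per label in line 2838, batch shared with line, unknown depth, and Sprr2a genes that share most of their sequence.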
